A study of Homo sapiens with 9 samples.

Results

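Collagens are the main structural proteins of the space between cells: their chains wind into rope-like helices that are then cross-linked outside the cell. Basement membrane collagens form thin sheets under and around cells, fibrillar collagens form long cables, and the other classes coat those cables, form beaded filaments or short-chain networks, or stay anchored in the cell membrane. Most collagens are built from several different chains, each with its own gene, and the chains need hydroxylation, export, trimming and cross-linking before they can carry load. The genes described here are the protein-coding rows of the table whose symbol has the form COL, a number, A and a number. Of 22290 rows, 41 met this rule; they comprise 7 basement membrane, 11 fibrillar and 23 other collagens. The annotation holds 44 such genes, and COL4A3, COL6A5 and COL10A1, the 3 without a row, were not analysed here.

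RNA was sequenced from 9 libraries labelled as IMR-32, a line of human neuroblastoma cells in long use, grown in DMEM with fetal bovine serum. TRAP-1 is a mitochondrial chaperone of the HSP90 family, and the study asked which transcripts go with its level: 3 libraries came from parental cells (PAR), 3 from cells in which TRAP-1 was to be knocked down (KD) and 3 from cells in which it was to be overexpressed (OE). The values are rlog values, that is, log2 read counts per gene after scaling by library size and a pull toward the gene's mean. A difference between groups is thus smaller than the log2 fold change of the counts, the more so for genes with few reads. The paper states a nominal read number for the sequencing, but these values do not show the depth reached in each library. The engineered cells were made earlier than this study; whether each is a clone or a pool, and whether a vector control existed beside the unmodified parental cells, is not given in the sources used here. Nothing in the labels says that libraries of a group came from separate cultures, so the p-values measure only the spread between these libraries, which may be technical.

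The labels were checked first. TRAP1 had rlog values of 10.67, 10.66 and 10.65 in the parental libraries, 10.79, 10.79 and 10.83 in those labelled KD and 10.67, 10.63 and 10.74 in those labelled OE. All 3 libraries labelled KD thus lay above all 3 parental libraries, with a difference of 0.14 ± 0.025 (SE; limma, adjusted p = 1.76e-05), and those labelled OE overlapped parental, with 0.02 ± 0.025 (SE; limma, adjusted p = 0.643). Of the exonic bases of TRAP1, 28.5% are shared with another annotated gene. TRAP1 RNA went against the label KD and, in the values as deposited, was not called in those labelled OE. With the medians of 20-Mb chromosome blocks removed, it was called higher in those labelled OE, by 0.06 (limma, adjusted p = 0.0343). KD and OE below therefore name the labels of the libraries and not a level of TRAP-1.

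The cell type label was checked next, with markers of adrenergic neuroblastoma, the noradrenaline-producing state that IMR-32 is known for, along with its amplified MYCN gene. MYCN had rlog values of 2.54, 2.46 and 2.54 in the parental libraries, 2.58, 2.61 and 2.61 in those labelled KD and 2.52, 2.50 and 2.51 in those labelled OE, where the table's values span 0.14 to 18.54 and the median row lies at 7.05. The noradrenergic regulator PHOX2A lay at 1.30 to 1.40 over the 9 libraries and the catecholamine enzyme gene TH at 2.65 to 2.85, and DBH was not analysed here. Other genes of this state were higher, with a mean rlog of 9.29 for ISL1, 9.20 for GATA2, 7.27 for GATA3, 6.34 for HAND2 and 5.77 for CHGB. The markers of the labelled cell type were thus mixed, with MYCN, PHOX2A and TH low in all 3 groups. ERBB3, the most abundant of 6 measured Schwann cell markers, had a mean rlog of 14.13, and 5 of the 6 had a mean of at least 8. Of these 6 markers, 1 was called higher and 3 lower in those labelled KD, and 3 higher and 0 lower in those labelled OE. The authors state that the identity of the line was authenticated, and in what follows the cells are called only by their labels.

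Collagen transcripts covered nearly the whole range of the table. Of the 41 members, 9 had a mean rlog of 12 or more, 14 lay between 8 and 12, 5 between 5 and 8, and 13 under 5, and the median member lay at 8.47. To compare genes with each other, the log2 of the exon length in kilobases was subtracted from the mean rlog, with exons of all annotated transcripts merged. On this length-corrected log2 scale COL9A3, a chain of the type IX collagen that sits on the surface of cartilage-type fibrils, was highest at 11.41, followed by COL4A2 (10.84), COL6A1 (10.64), COL4A1 (10.53), COL6A2 (10.09) and COL19A1 (9.68). The chains of type I and type III collagen, the bulk fibrillar collagens of fibroblasts, were low, with length-corrected levels of 1.01 for COL1A1, -1.60 for COL3A1 and -2.06 for COL1A2, the lowest of the 41 members. Their rlog values over the 9 libraries were 4.07 to 4.27, 1.14 to 1.18 and 1.34 to 1.41, with no call in any of the 3 comparisons, except for COL1A2 without KD replicate 1 (0.05 in KD minus PAR; limma, adjusted p = 0.0367). Type I collagen is known to need both of its chains to form its usual molecule, and the transcripts of both were low here.

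**Figure D1:**
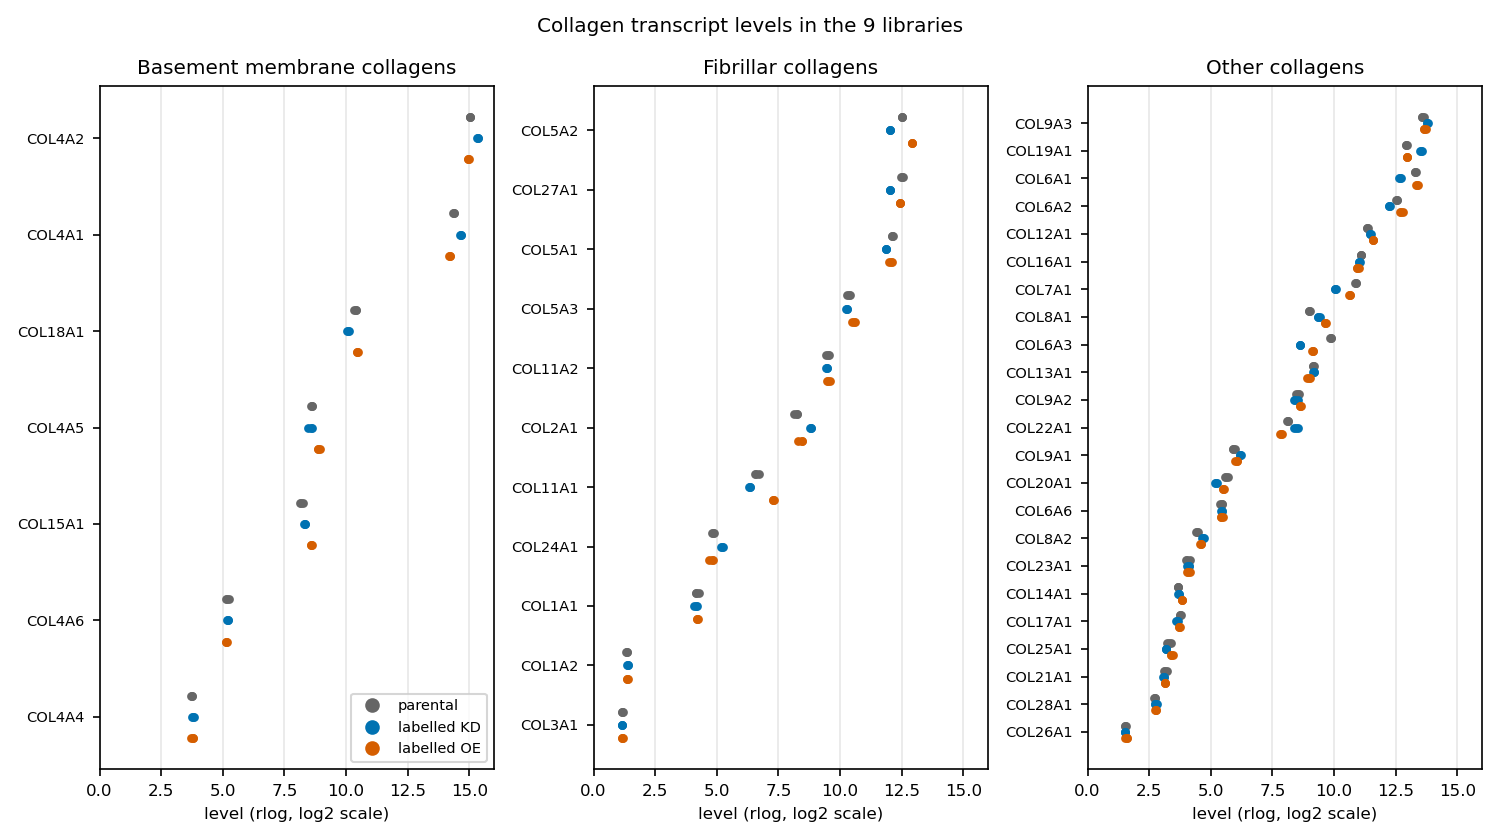
Levels of the 41 collagen transcripts as rlog values (log2 scale, horizontal axis), 1 point per library, in gray for parental, blue for labelled KD and orange for labelled OE. COL4A2 and COL4A1 lie at the top of the basement membrane panel, and COL1A2 and COL3A1 lie under 1.5 in all 9 libraries.

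Several collagen chains that assemble together are encoded side by side. COL4A1 and COL4A2 stand back to back on chromosome 13 with 127 bases between their start sites, so their promoter windows of 300 bases (250 before to 50 after the start, from RefSeq, GRCh38.p14) share 226 bases. COL4A5 and COL4A6 stand back to back on the X chromosome with 380 bases between the starts, and their windows share 121 bases. COL6A2 lies 93.1 kb beyond COL6A1 on the same strand of chromosome 21, and COL6A3, the partner of both in type VI collagen, lies on chromosome 2. The table of promoter windows held 30 of the 41 members. The windows of the back-to-back pairs and of COL6A2 and COL6A3 are printed because these partners are compared below; COL6A1 had no window. Capitals mark matches, on either strand, to CCAAT, to GGGCGG (the GC box) and to TATAAA, which occur in 34.6%, 45.0% and 11.5% of all 35116 windows of this length. The windows lie at chr13:110307108-110307407, minus strand (COL4A1), chr13:110307034-110307333, plus strand (COL4A2), chrX:108439588-108439887, plus strand (COL4A5), chrX:108439409-108439708, minus strand (COL4A6, the nearer of its 2 windows), chr21:46097862-46098161, plus strand (COL6A2) and chr2:237414115-237414414, minus strand (COL6A3).
COL4A1: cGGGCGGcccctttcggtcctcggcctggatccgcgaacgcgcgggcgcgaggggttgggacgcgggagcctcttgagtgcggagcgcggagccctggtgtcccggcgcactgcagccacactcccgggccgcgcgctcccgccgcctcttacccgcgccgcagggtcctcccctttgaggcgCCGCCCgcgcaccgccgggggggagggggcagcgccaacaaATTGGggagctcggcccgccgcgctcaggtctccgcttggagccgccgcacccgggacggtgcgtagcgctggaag
COL4A2: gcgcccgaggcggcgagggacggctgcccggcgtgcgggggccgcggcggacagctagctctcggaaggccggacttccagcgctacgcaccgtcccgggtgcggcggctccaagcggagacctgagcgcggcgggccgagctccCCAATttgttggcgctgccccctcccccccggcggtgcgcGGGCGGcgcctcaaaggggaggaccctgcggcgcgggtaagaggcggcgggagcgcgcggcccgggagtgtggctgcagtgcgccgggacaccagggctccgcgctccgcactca
COL4A5: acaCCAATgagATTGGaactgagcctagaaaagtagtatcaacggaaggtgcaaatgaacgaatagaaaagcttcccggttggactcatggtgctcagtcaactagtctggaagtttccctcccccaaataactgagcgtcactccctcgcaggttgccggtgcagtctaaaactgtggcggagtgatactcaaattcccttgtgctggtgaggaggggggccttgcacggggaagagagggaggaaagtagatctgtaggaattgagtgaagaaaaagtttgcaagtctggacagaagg
COL4A6: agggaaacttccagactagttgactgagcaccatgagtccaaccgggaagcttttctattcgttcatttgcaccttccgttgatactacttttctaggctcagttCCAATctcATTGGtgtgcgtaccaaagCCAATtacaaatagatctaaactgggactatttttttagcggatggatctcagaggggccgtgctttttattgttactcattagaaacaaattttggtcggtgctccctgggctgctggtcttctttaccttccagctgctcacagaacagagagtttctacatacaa
COL6A2: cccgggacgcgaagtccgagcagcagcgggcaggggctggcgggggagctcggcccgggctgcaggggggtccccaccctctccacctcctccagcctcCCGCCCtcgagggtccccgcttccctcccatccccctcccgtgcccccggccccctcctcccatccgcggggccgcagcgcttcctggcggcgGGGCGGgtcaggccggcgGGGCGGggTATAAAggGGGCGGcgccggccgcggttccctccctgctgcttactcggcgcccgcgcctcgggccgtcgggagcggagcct
COL6A3: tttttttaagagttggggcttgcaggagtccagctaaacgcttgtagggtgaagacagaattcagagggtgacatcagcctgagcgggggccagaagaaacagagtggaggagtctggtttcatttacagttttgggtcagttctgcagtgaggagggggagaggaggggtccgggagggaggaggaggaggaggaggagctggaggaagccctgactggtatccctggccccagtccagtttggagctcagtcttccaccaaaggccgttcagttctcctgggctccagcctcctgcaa

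The COL4A1 and COL4A2 windows were rich in G and C (76.7% and 77.7%, where the median window has 58.7%) and share 1 CCAAT match and 1 GC box, read on opposite strands. The COL4A5 and COL4A6 windows had 49.3% and 43.7% G and C, 2 and 3 CCAAT matches and no GC box. In the COL6A2 window 4 GC boxes and a TATAAA match were found, the latter 32 bases before the start, and the COL6A3 window held none of the 3 motifs. A match describes these letters only and says nothing of which factor binds there.

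In the libraries labelled KD, the main network-forming collagen of basement membranes was higher and the filament-forming type VI collagen was lower than in parental. Both back-to-back type IV genes, COL4A1 and COL4A2, rose by nearly the same amount, 0.29 and 0.30 in rlog. All 3 measured chains of type VI collagen that form its usual molecule fell, COL6A3 by 1.24, COL6A1 by 0.61 and COL6A2 by 0.30, as did the anchoring-fibril collagen COL7A1, by 0.81. COL19A1 and the cartilage collagen COL2A1 rose, by 0.61 and 0.60.

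Of the 41 members, 12 were called higher and 13 lower at an adjusted p under 0.05, and 16 were not called. Over all 22290 rows, 26.9% were called higher and 26.9% lower, so the split between directions was even in both. Called differences of at least 0.3 in rlog were found for 12 of the 41 members, 5 higher and 7 lower, against 13.5% of all rows. Among rows whose mean rlog reached 5, where shrinkage is weaker, 21 of 28 members were called (71.7% of 14000 rows) and 11 by at least 0.3 (20.5% of those rows). The median difference of the members was -0.0043, beside -0.00051 over all rows. Where whole groups differ like this in bulk RNA, fewer cells of a type and less RNA per cell cannot be told apart.

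Among the 7 basement membrane collagens, 3 were called higher, 1 lower and 3 not called. COL4A1, the alpha-1 chain of the type IV network found in nearly all basement membranes, had rlog values of 14.36, 14.36 and 14.36 in the parental libraries, 14.64, 14.65 and 14.66 in those labelled KD and 14.20, 14.19 and 14.22 in those labelled OE. COL4A2, its partner chain, had 15.03, 15.02 and 15.05 in the parental libraries, 15.31, 15.33 and 15.34 in those labelled KD and 14.95, 14.96 and 14.98 in those labelled OE. For both genes the 3 groups were fully separate, with those labelled KD highest, parental next and those labelled OE lowest. The differences of those labelled KD from parental were 0.29 ± 0.011 (SE; limma, adjusted p = 1.21e-20) for COL4A1 and 0.30 ± 0.011 (SE; limma, adjusted p = 2.62e-21) for COL4A2, and the median of 41 other rows in their 20-Mb stretch of chromosome 13 was -0.02. The neighbouring pair COL4A5 and COL4A6, chains of type IV networks known from kidney and smooth muscle, was not called, with differences of -0.05 and 0.02, and COL4A4 was not called either, at 0.07. COL15A1, which bridges basement membrane and fibrils, had rlog values of 8.15, 8.16 and 8.25 in the parental libraries, 8.31, 8.31 and 8.32 in those labelled KD and 8.56, 8.57 and 8.64 in those labelled OE. Its 3 libraries labelled KD lay just above parental, by 0.13 ± 0.037 (SE; limma, adjusted p = 0.00349). COL18A1, the source of endostatin, fell by 0.29 in rlog (SE 0.026; limma, adjusted p = 2.83e-11); 18.47% of its exonic bases are shared with another annotated gene, and the library kit does not mark strand.

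Among the 11 fibrillar collagens, 2 were called higher, 4 lower and 5 not called. COL5A2, a chain of the type V collagen that starts and limits fibrils, had rlog values of 12.53, 12.52 and 12.50 in the parental libraries, 12.02, 12.03 and 12.04 in those labelled KD and 12.93, 12.93 and 12.92 in those labelled OE. The groups did not overlap, and those labelled KD were lowest, with a difference from parental of -0.49 ± 0.016 (SE; limma, adjusted p = 2.02e-22). Its neighbour COL3A1, 19.2 kb away on the other strand, stayed between 1.14 and 1.18 in all 9 libraries. COL27A1, a cartilage fibrillar collagen, had rlog values of 12.50, 12.47 and 12.54 in the parental libraries, 12.02, 12.04 and 12.03 in those labelled KD and 12.44, 12.41 and 12.45 in those labelled OE. It was lowest in those labelled KD, without overlap, with a difference of -0.48 ± 0.018 (SE; limma, adjusted p = 7.57e-21). COL2A1, the main fibrillar collagen of cartilage, had rlog values of 8.25, 8.12 and 8.24 in the parental libraries, 8.77, 8.81 and 8.81 in those labelled KD and 8.29, 8.47 and 8.45 in those labelled OE. All 3 libraries labelled KD were above all others, 0.60 ± 0.042 (SE; limma, adjusted p = 8.54e-14) over parental. COL24A1, a minor fibrillar chain, had 4.87, 4.80 and 4.83 in the parental libraries, 5.23, 5.21 and 5.16 in those labelled KD and 4.81, 4.84 and 4.67 in those labelled OE. It too was highest in those labelled KD, 0.37 ± 0.048 (SE; limma, adjusted p = 7.95e-08) over parental. The smaller decreases were those of COL5A1, the partner of COL5A2, and of COL11A1, a type XI chain, at -0.27 and -0.27. COL1A1, COL1A2, COL3A1, COL5A3 and COL11A2 were not called, with differences of -0.07 to 0.03. COL5A3 became called without OE replicate 1, OE replicate 3 or PAR replicate 2 (-0.09 to -0.07) and with equal library medians, a replicate block, the compared groups alone or only rows whose mean rlog reached 5 (-0.08 to -0.07), and COL1A2 became called without KD replicate 1 (0.05).

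Of the 23 other collagens, 7 were called higher, 8 lower and 8 not called. Type VI collagen, whose chains form beaded filaments around many cells and whose loss is known from congenital muscle disease, fell in every measured chain of the usual molecule. COL6A1 had rlog values of 13.29, 13.28 and 13.33 in the parental libraries, 12.68, 12.65 and 12.72 in those labelled KD and 13.32, 13.35 and 13.41 in those labelled OE. COL6A2 had 12.55, 12.52 and 12.55 in the parental libraries, 12.21, 12.22 and 12.29 in those labelled KD and 12.68, 12.73 and 12.80 in those labelled OE. COL6A3, the largest chain, had 9.85, 9.86 and 9.88 in the parental libraries, 8.63, 8.62 and 8.61 in those labelled KD and 9.14, 9.14 and 9.11 in those labelled OE. In all 3 genes the libraries labelled KD were lowest and apart from both other groups, with differences from parental of -0.61 ± 0.019 (SE; limma, adjusted p = 3.02e-23), -0.30 ± 0.022 (SE; limma, adjusted p = 1.21e-13) and -1.24 ± 0.03 (SE; limma, adjusted p = 3.78e-26). COL6A6, a chain related to COL6A3, was not called (-0.00246).

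COL7A1 forms the anchoring fibrils that tie skin to its basement membrane. It had rlog values of 10.83, 10.88 and 10.89 in the parental libraries, 10.03, 10.05 and 10.08 in those labelled KD and 10.66, 10.60 and 10.65 in those labelled OE, and the difference of those labelled KD was -0.81 ± 0.025 (SE; limma, adjusted p = 4.00e-23). COL8A1, a short-chain collagen of endothelial and corneal matrix, had 9.02, 8.96 and 8.98 in the parental libraries, 9.42, 9.35 and 9.34 in those labelled KD and 9.64, 9.66 and 9.63 in those labelled OE. Here parental was lowest and those labelled OE highest, and the rise in those labelled KD was 0.38 ± 0.03 (SE; limma, adjusted p = 1.53e-12); its partner COL8A2 rose by 0.22.

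Among the 10 fibril-associated collagens, which bind the surface of fibrils, 5 were called higher and 2 lower. COL19A1 had rlog values of 12.92, 12.90 and 12.95 in the parental libraries, 13.55, 13.54 and 13.50 in those labelled KD and 12.97, 12.97 and 12.95 in those labelled OE. The libraries labelled KD stood 0.61 ± 0.016 (SE; limma, adjusted p = 3.71e-25) above parental, with no overlap. COL9A3, the highest member per length, had 13.57, 13.58 and 13.64 in the parental libraries, 13.75, 13.76 and 13.83 in those labelled KD and 13.65, 13.66 and 13.73 in those labelled OE. It rose by 0.18 ± 0.019 (SE; limma, adjusted p = 9.60e-10), and of its partner chains in type IX collagen COL9A1 rose by 0.27 and COL9A2 was not called (-0.07), but was without KD replicate 3 (-0.12) and with quantile normalization (-0.10). COL22A1, known from muscle and tendon junctions, had 8.12, 8.12 and 8.11 in the parental libraries, 8.37, 8.45 and 8.52 in those labelled KD and 7.83, 7.82 and 7.91 in those labelled OE. It was highest in those labelled KD, 0.33 ± 0.04 (SE; limma, adjusted p = 1.51e-08) over parental. COL20A1 had 5.59, 5.68 and 5.61 in the parental libraries, 5.22, 5.19 and 5.26 in those labelled KD and 5.50, 5.50 and 5.52 in those labelled OE. It was lowest in those labelled KD, with a difference of -0.40 ± 0.046 (SE; limma, adjusted p = 4.80e-09). Smaller changes were those of COL12A1 (0.11) and COL16A1 (-0.07), and COL14A1 and COL21A1 were not called (0.02 and -0.06). Of the 4 transmembrane collagens, COL17A1 and COL25A1 fell, by 0.14 and 0.13 in rlog, and COL13A1 and COL23A1 were not called (0.04 and 0.02); COL25A1 was not called without PAR replicate 2 (-0.09; limma, adjusted p = 0.0694). COL26A1 and COL28A1 were not called (-0.03 and 0.04).

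**Figure D2:**
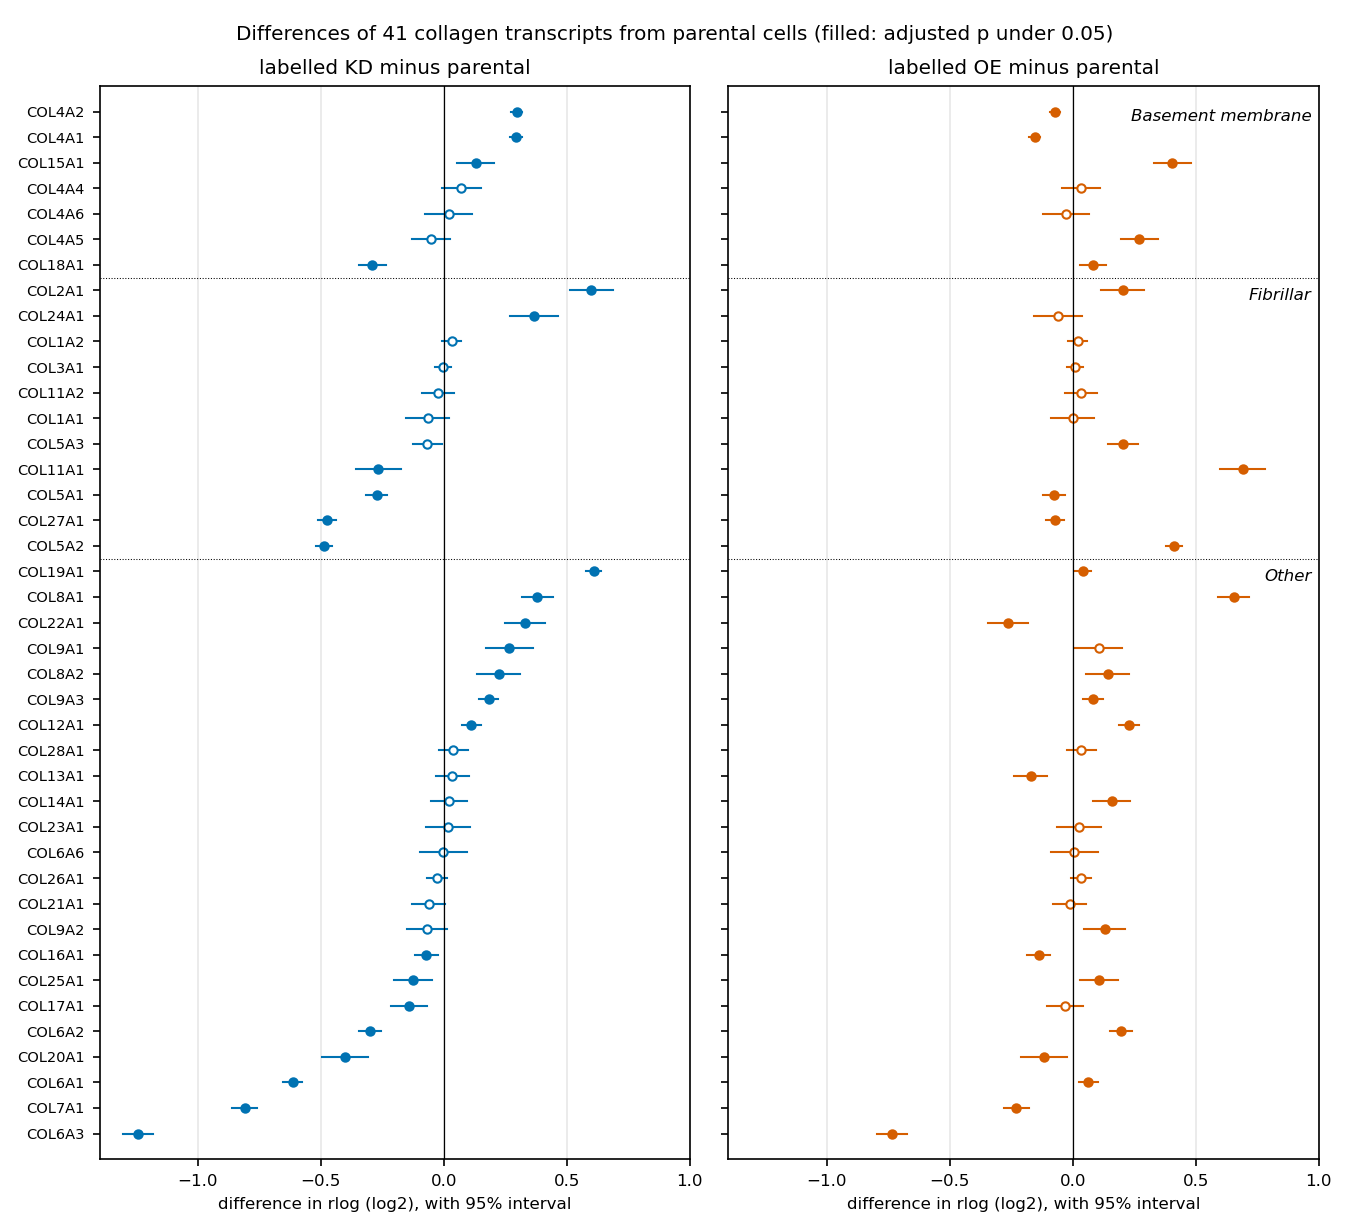
Differences in rlog (log2, horizontal axis) of the libraries labelled KD (left) and OE (right) from the parental libraries for 41 collagen transcripts, with 95% intervals from limma and 3 libraries per group; filled points had an adjusted p under 0.05. Both panels share the parental libraries. COL6A3 was lowest in both panels, and COL5A2 and COL11A1 lie to the left of 0 for KD and to the right of 0 for OE.

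Several members lie in chromosome stretches whose other genes differed as well, mostly downward. Around COL5A1, COL27A1 and COL15A1 on chromosome 9, the median difference of the other rows (mean rlog 8 or more) in the same 20-Mb block was -0.35 (163 rows), -0.36 (44 rows) and -0.36 (58 rows), and only 6.13%, 9.09% and 3.45% of those rows were higher in the libraries labelled KD. Around COL7A1 on chromosome 3 the median was -0.30 over 138 rows, and around COL22A1 it was -0.26 over 34 rows. With the block medians removed from each library, COL5A1 turned from -0.27 to 0.08, COL27A1 moved from -0.48 to -0.13, COL15A1 from 0.13 to 0.48, COL7A1 from -0.81 to -0.50 and COL22A1 from 0.33 to 0.58, all called. COL12A1 was no longer called (0.03; limma, adjusted p = 0.149), and COL14A1 (0.27), COL4A5 (-0.12), COL11A2 (-0.09) and COL26A1 (-0.06) became called. COL14A1 and COL26A1 were low, with mean rlog values of 3.73 and 1.55, whereas block medians came from rows with a mean of 8 or more. COL14A1 was flat as deposited (0.02) in a block with a median of -0.26. The new calls of these 2 low members cannot be told from the subtraction itself. By contrast the blocks around COL6A3 and COL5A2 had medians of 0.02 and 0.00, and their differences were -1.24 and -0.46 with the block medians removed. Type VI collagen on chromosome 21 lay between: the block median was -0.07, and COL6A1 and COL6A2 were -0.52 and -0.21 without it.

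**Figure D3:**
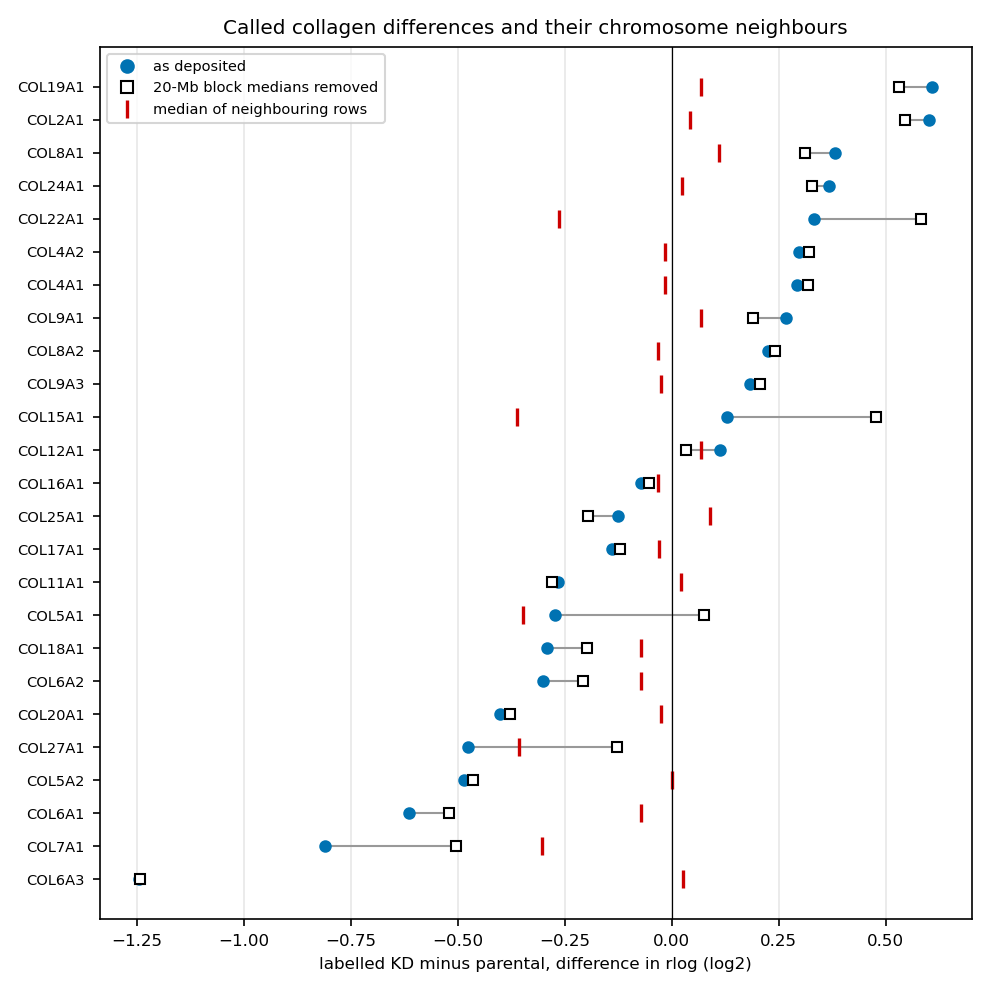
The 25 collagen transcripts called between the libraries labelled KD and parental, with the difference in rlog (log2, horizontal axis) as deposited (filled circles) and with 20-Mb block medians removed (open squares); red marks give the median difference of neighbouring rows (mean rlog 8 or more). The open square of COL5A1 lies on the other side of 0, and those of COL6A3 and COL5A2 lie close to their circles.

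Genes that make and break down collagen were compared in the same way. Of 72 measured genes in 7 lists, 39 were called higher and 21 lower, 83.3%, against 53.7% of all rows and 71.7% of rows whose mean rlog reached 5, with a median difference of 0.051. Genes for the hydroxylation and glycosylation of collagen in the endoplasmic reticulum rose in 10 of 14 and fell in 2. P3H2, a prolyl 3-hydroxylase that acts on type IV collagen, rose by 0.70, P4HA1, a catalytic chain of prolyl 4-hydroxylase, by 0.50, the galactosyltransferase COLGALT2 by 0.45 and P3H3 by 0.44. The 2 that fell were COLGALT1 (-0.25) and CRTAP (-0.06). With block medians removed CRTAP was called higher (0.19). PLOD3, which rose by 0.05, was then not called (0.02), and P3H1, not called before, was called lower (-0.05). Of 11 measured chaperone and export genes 10 rose, among them the vesicle coat genes SEC31A (0.66) and SEC23A (0.47) and the folding catalyst FKBP7 (0.36), and SEC13, the coat partner of SEC31A, fell by 0.38. P3H2 lies in a block with a median of 0.23 and was 0.46 without it, SEC31A lies in a block with a median of 0.40 and was 0.26 without it, and SEC13 lies in a block with a median of -0.33 and was -0.05. With block medians removed, 8 of the 10 rises in chaperone and export genes were still called, those of PPIB (0.02) and SEC24D (0.03) were not, and the collagen pathway lists, KD minus PAR, held 57 called genes.

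Propeptide cleavage and cross-linking genes were called higher in 4 of 14 and lower in 5. LOXL4, a lysyl oxidase that cross-links collagen, had rlog values of 13.91, 13.91 and 13.90 in the parental libraries, 15.24, 15.26 and 15.27 in those labelled KD and 14.49, 14.50 and 14.53 in those labelled OE. PXDN, the peroxidase that joins type IV collagen molecules by sulfilimine bonds, had 12.44, 12.41 and 12.44 in the parental libraries, 11.31, 11.35 and 11.31 in those labelled KD and 12.63, 12.65 and 12.69 in those labelled OE. Those labelled KD were thus highest in LOXL4 and lowest in PXDN, with differences from parental of 1.35 ± 0.012 (SE; limma, adjusted p = 8.82e-38) and -1.11 ± 0.019 (SE; limma, adjusted p = 2.86e-30). PCOLCE, which speeds propeptide removal, rose by 0.96 (16.8% of its exonic bases are shared), and ADAMTS2, which cuts the amino end of fibrillar procollagens, fell by 0.56.

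Of 10 measured collagen receptor genes 5 rose and 4 fell. ITGA1, the integrin chain that prefers type IV collagen, rose by 1.05, ITGA10 by 1.02 and the receptor tyrosine kinase DDR2 by 0.65, and ITGA11, which binds fibrillar collagen, fell by 0.30; ITGA2, another integrin chain for collagen, and the receptor ADGRG1 fell further, by 0.51 and 0.35. Among 7 measured collagen-degrading proteases 4 rose and 2 fell. CTSK, a lysosomal protease that cuts the collagen helix, had rlog values of 7.56, 7.60 and 7.57 in the parental libraries, 9.56, 9.57 and 9.56 in those labelled KD and 8.56, 8.56 and 8.60 in those labelled OE. It was highest in those labelled KD, 1.99 ± 0.034 (SE; limma, adjusted p = 3.58e-30) over parental. The membrane collagenase MMP14 rose by 0.74, and the gelatinases MMP9 and MMP2, which cut type IV collagen, fell by 0.52 and 0.09.

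Of the 5 proteins known to join type IV collagen in basement membranes, NID1 rose by 0.59, AGRN by 0.27 and SPARC by 0.09, and NID2 fell by 0.37 (30.7% of its exonic bases are shared) and HSPG2 by 0.05. HSPG2 was not called with block medians removed (-0.04). After quantile normalization SPARC was at -0.01 and not called. Of 11 measured genes of the transforming growth factor beta input, a known driver of collagen transcription, 3 rose and 5 fell: the ligand TGFB1 rose by 0.33 and the collagen export regulator CREB3L2 by 0.24, and the receptors TGFBR2 and TGFBR1 fell by 0.38 and 0.21. These receptors lie in blocks with medians of -0.23 and -0.37, without which they were -0.13 and 0.14. FKBP14, LAIR1, GP6, MMP1 and TGFB3, which are also on these lists, were not analysed here.

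Markers of fibroblasts and mesenchymal cells, chosen without any collagen, went both ways, and their summed level differed between the groups mostly through PRRX1. All 12 had a row and 6 had a mean rlog under 5, among them POSTN (1.07 to 1.15 over the 9 libraries) and FAP (1.71 to 1.83). The log2 of their summed level was 12.93, 12.97 and 12.96 in the parental libraries, 13.56, 13.55 and 13.56 in those labelled KD and 13.38, 13.37 and 13.39 in those labelled OE, and the most abundant, PRRX1, had 11.64, 11.74 and 11.72 in the parental libraries, 13.00, 12.99 and 12.98 in those labelled KD and 12.40, 12.40 and 12.38 in those labelled OE. Of the 12, 2 were called higher and 4 lower in those labelled KD (-0.45 to 1.29, median 0.013), and 6 higher and 2 lower in those labelled OE (-0.13 to 0.69). The 7 endothelial markers, led by PECAM1 with a mean rlog of 9.50 and with CDH5 at 0.60 to 0.68, summed to 10.02 to 10.05, 10.14 to 10.18 and 9.58 to 9.71 in the same order. In those labelled KD 2 were called higher and 2 lower, from -1.32 for KDR to 0.47 for PECAM1. In those labelled OE none was called higher and 2 lower, KDR (-0.84) and PECAM1 (-0.28). The epithelial markers (4 of 6 with a row, led by KRT18 at 12.04, with EPCAM at 2.52 to 2.62) summed to 12.49 to 12.51, 12.52 to 12.57 and 12.36 to 12.38, and the immune markers (3 of 5, led by LYZ at 5.82, with PTPRC at 2.60 to 2.68) to 6.40 to 6.44, 6.15 to 6.18 and 6.21 to 6.34. Of the epithelial markers, KRT8 was called higher in those labelled KD (0.39) and OE (0.40). KRT18 and CLDN4 were called lower in those labelled OE (-0.10 and -0.57). The immune markers CD14 and LYZ were called lower under both labels (-0.30 to -0.13). The part of these markers in the collagen differences was not tested.

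In the libraries labelled OE, the fibril-starting chains COL5A2 and COL11A1 and the short-chain COL8A1 were higher than in parental, and COL6A3 was lower. COL11A1 rose by 0.69 in rlog, COL8A1 by 0.65, COL5A2 by 0.41 and COL15A1 by 0.40, and COL6A3 fell by 0.73. The type IV pair COL4A1 and COL4A2 fell slightly, by 0.15 and 0.07. This comparison uses the same parental libraries as that of those labelled KD, so the differences are given side by side and not as separate support.

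Of the 41 members, 17 were called higher and 10 lower, and 14 were not called, against 16.9% of all rows higher and 18.0% lower. Called differences of at least 0.3 were found for 5 members (4 higher, 1 lower), against 3.84% of rows. Among rows whose mean rlog reached 5, 24 of 28 members were called (50.3% of the 14000 rows) and 5 by at least 0.3 (5.89%). The median difference of the members was 0.033, beside 0.00039 over all rows.

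Of the 7 basement membrane collagens 3 were called higher, 2 lower and 2 not called. The libraries labelled OE were below parental in both COL4A1 and COL4A2, with differences of -0.15 ± 0.011 (SE; limma, adjusted p = 8.27e-13) and -0.07 ± 0.011 (SE; limma, adjusted p = 2.00e-06); COL4A2 was not called with block medians removed (-0.03; limma, adjusted p = 0.071). Of the other back-to-back pair, only COL4A5 was called. COL4A5 had rlog values of 8.63, 8.63 and 8.59 in the parental libraries, 8.63, 8.47 and 8.58 in those labelled KD and 8.93, 8.88 and 8.84 in those labelled OE. All 3 libraries labelled OE were above the rest, 0.27 ± 0.038 (SE; limma, adjusted p = 5.55e-07) over parental. COL4A6 was not called, at -0.03, but its mean rlog was 5.18, against 8.69 for COL4A5. Differences are shrunken more at that lower level, so whether the pair differed in its change cannot be read from this. COL15A1 stood 0.40 ± 0.037 (SE; limma, adjusted p = 1.29e-10) above parental, as its values above show, and COL18A1 rose by 0.08. COL4A4 was not called (0.03).

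Of the 11 fibrillar collagens 4 were called higher, 2 lower and 5 not called. COL11A1, a chain of the type XI collagen of cartilage that resembles type V, had rlog values of 6.58, 6.56 and 6.69 in the parental libraries, 6.35, 6.32 and 6.36 in those labelled KD and 7.30, 7.30 and 7.31 in those labelled OE. The 3 groups did not overlap, with those labelled OE highest by 0.69 ± 0.045 (SE; limma, adjusted p = 5.16e-14) and those labelled KD lowest. COL5A2 followed the same order, 0.41 ± 0.016 (SE; limma, adjusted p = 1.26e-19) over parental. Other chains of these types differed: COL5A3 rose by 0.20, COL2A1 by 0.20, COL5A1 and COL27A1 were lower, at -0.08 and -0.07, and COL11A2 was not called (0.03). With block medians removed, COL5A1 and COL27A1 were 0.03 and -0.01, neither called. COL24A1, COL1A1, COL1A2 and COL3A1 were not called, at -0.06 to 0.02.

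**Figure D4:**
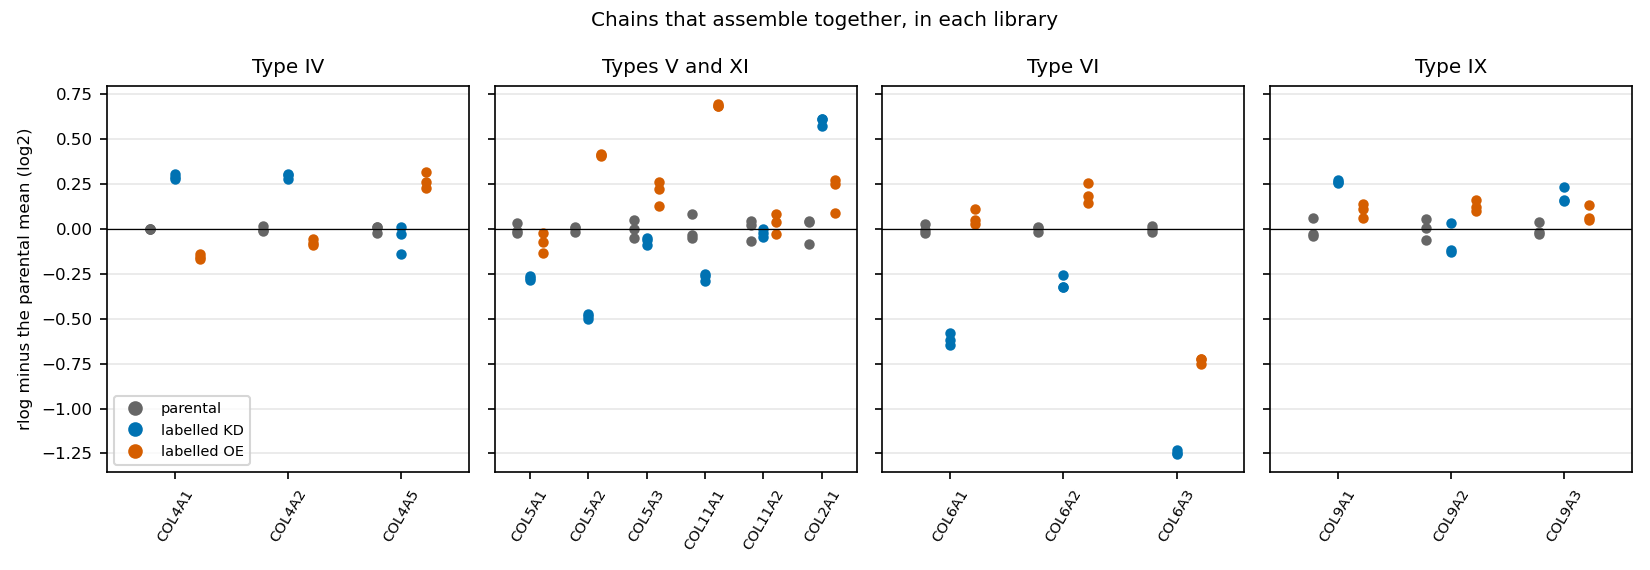
Chains of the same or related collagen types, shown as rlog minus the parental mean of the same gene (log2, vertical axis), 1 point per library, for types IV, V and XI, VI and IX. In type VI the points labelled KD lie below 0 in all 3 chains and those labelled OE lie below 0 in COL6A3. In type IV the partners COL4A1 and COL4A2 move alike, and COL4A5, a chain of other type IV networks, does not.

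Of the 23 other collagens 10 were called higher, 6 lower and 7 not called. The chains of type VI collagen parted: COL6A3 fell by 0.73 (SE 0.03; limma, adjusted p = 3.11e-19), COL6A2 rose by 0.20 ± 0.022 (SE; limma, adjusted p = 7.02e-09) and COL6A1 by 0.06. COL8A1 rose by 0.65 ± 0.03 (SE; limma, adjusted p = 1.04e-17) and COL8A2 by 0.14. COL7A1, COL16A1 and the transmembrane COL13A1 fell, by 0.23, 0.14 and 0.17 in rlog, and COL22A1 fell by 0.26 and COL20A1 by 0.12. The rises of COL12A1 (0.23), COL14A1 (0.16), COL9A2 (0.13), COL25A1 (0.11), COL9A3 (0.08) and COL19A1 (0.04) were small. COL6A6, COL9A1, COL17A1, COL21A1, COL23A1, COL26A1 and COL28A1 were not called, at -0.03 to 0.11. COL9A1 became called without PAR replicate 3 (0.14) and COL26A1 without OE replicate 2 (0.05).

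The smallest of these calls depended on single libraries or on the settings. Left out singly, OE replicate 3 or PAR replicate 2 ended the calls of COL6A1 (0.04 to 0.05) and COL18A1 (0.06 to 0.07), OE replicate 1 or PAR replicate 3 that of COL5A1 (-0.06 to -0.05), OE replicate 3 or PAR replicate 1 that of COL9A2 (0.10 to 0.11), PAR replicate 2 that of COL8A2 (0.12), and OE replicate 2, PAR replicate 1 or PAR replicate 3 that of COL25A1 (0.06 to 0.11). COL19A1 lost its call without any of 4 libraries, OE replicates 1 and 2 and PAR replicates 1 and 2 (0.03 to 0.04), and COL20A1 without any of the 9 except PAR replicate 1 (-0.12 to -0.09), the limma adjusted p reaching 0.20. Without the variance trend the higher calls fell from 17 to 13: COL9A3 (limma, adjusted p = 0.0688), COL9A2, COL6A1, COL19A1 and COL25A1 were lost and COL9A1 was gained; COL5A1 was lost there as well and with quantile normalization. Equal library medians also left 13 higher calls, without COL6A1, COL18A1, COL19A1 and COL25A1, and COL20A1 was not called with a replicate block or the compared groups alone. With block medians removed, COL19A1 (0.01), COL20A1 (-0.01) and COL25A1 (0.07) were not called, COL4A6 was (-0.14), and COL18A1, COL9A3, COL6A1 and COL4A5 were 0.14, 0.18, 0.12 and 0.16. COL25A1 and COL4A6 had mean rlog values of only 3.30 and 5.18, so their changed calls cannot be told from the subtraction itself.

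Of the 72 pathway genes 29 were called higher and 12 lower, 56.9%, against 34.8% of all rows and 50.3% of rows whose mean rlog reached 5, with a median difference of 0.030. Genes for collagen hydroxylation and glycosylation rose in 7 of 14 and fell in 3. P4HA1 was at 0.47, COLGALT2 at 0.24, P3H3 at 0.13, COLGALT1 at -0.12 and P3H2 at -0.26. Chaperone and export genes rose in 6 of 11 and fell in 1; FKBP7 rose by 0.30 and SEC23A by 0.27, and SEC31A and SEC13 were not called (0.01 and 0.04); with block medians removed SEC31A was called (0.09). In propeptide cleavage and cross-linking 5 of 14 rose and 3 fell: PCOLCE rose by 0.66, LOXL4 by 0.60 and PXDN by 0.23, and ADAMTS2 fell by 0.46.

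Collagen receptors rose in 5 of 10 genes and fell in 2, with ITGA11 at 0.55, DDR2 at 0.44, ITGA10 at 0.23 and ITGA1 at 0.07; the decreases were those of ITGA2 (-0.44) and ADGRG1 (-0.15). Of 7 proteases 3 rose and 2 fell: CTSK rose by 0.997 ± 0.034 (SE; limma, adjusted p = 3.13e-21) and MMP2 by 0.33, and MMP9 and MMP14 fell by 0.63 and 0.17. Of the type IV partners NID1 rose by 0.33, NID2 by 0.12 and SPARC by 0.10, and AGRN was not called (0.03); NID2 was not called without OE replicate 1, OE replicate 2, PAR replicate 1 or PAR replicate 2 (0.10 to 0.13; limma, adjusted p up to 0.17). In the transforming growth factor beta list 1 of 11 genes was called, lower, and TGFB1, TGFBR1, TGFBR2 and CREB3L2 were at -0.01 to 0.06, not called. With block medians removed, TGFBR1 and AGRN were called (0.12 and 0.08) and NID2 was not (0.11).

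**Figure D5:**
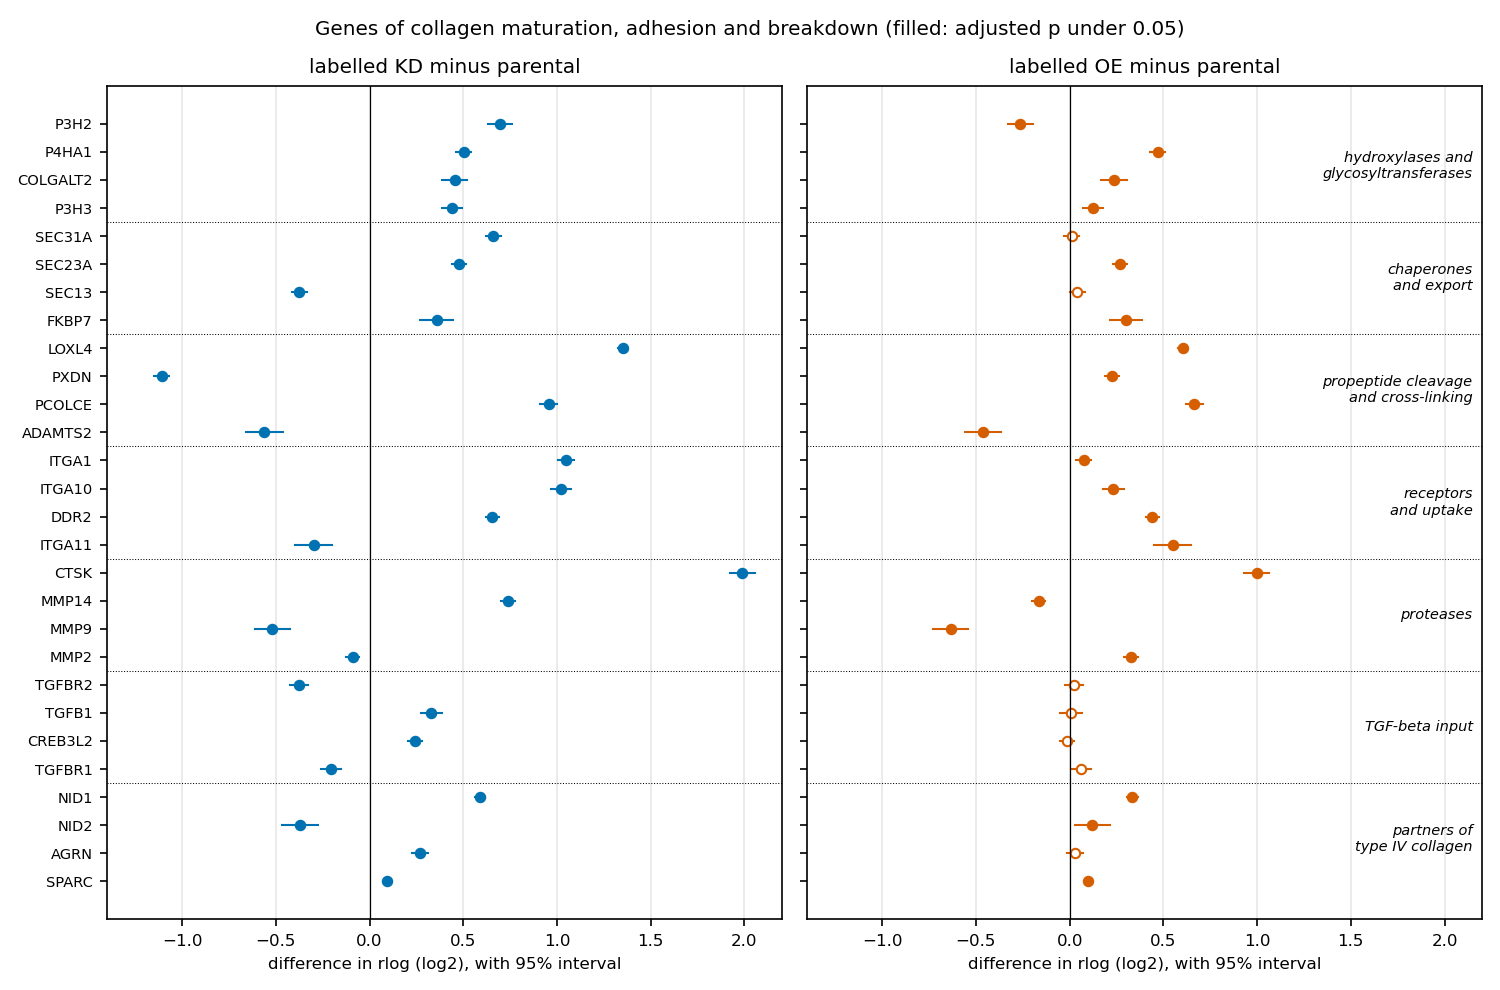
Differences in rlog (log2, horizontal axis) from parental of the named genes of the 7 collagen pathway lists, in the libraries labelled KD (left) and OE (right), with 95% intervals from limma and 3 libraries per group; filled points had an adjusted p under 0.05. CTSK and LOXL4 lie farthest to the right for KD, and PXDN lies farthest to the left for KD and to the right of 0 for OE.

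Set against each other, the engineered groups differed widely in the fibril-starting chains COL11A1 and COL5A2 and in the type VI chains COL6A1, COL6A2 and COL6A3, all higher in the libraries labelled OE, and in the type IV pair COL4A1 and COL4A2, COL19A1 and COL22A1, all higher in those labelled KD. This comparison tests directly whether the changes from parental differ between the labels. COL11A1 was 0.96 ± 0.045 (SE; limma, adjusted p = 3.89e-18) and COL5A2 0.90 ± 0.016 (SE; limma, adjusted p = 2.87e-29) higher in those labelled OE. COL6A1, COL7A1, COL6A3 and COL6A2 were higher by 0.68, 0.58, 0.51 and 0.50.

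Of the 41 members, 10 were called higher in those labelled KD, 20 in those labelled OE, and 11 not called, against 23.8% and 23.5% of all rows. Differences of at least 0.3 were called for 15 members, 9 higher in those labelled OE and 6 higher in those labelled KD, against 9.93% of rows, and among rows whose mean rlog reached 5 a call was made for 25 of 28 members and 64.1% of rows. The median difference, OE minus KD, was 0.059 for the members and 0.00078 for all rows.

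The type IV pair COL4A1 and COL4A2 was lower in those labelled OE, with differences of -0.45 ± 0.011 (SE; limma, adjusted p = 2.40e-25) for COL4A1 and -0.37 ± 0.011 (SE; limma, adjusted p = 1.25e-23) for COL4A2, and so were COL22A1 (-0.59), COL19A1 (-0.57), COL24A1 (-0.43), COL2A1 (-0.40), COL13A1 (-0.21), COL9A1 (-0.16), COL9A3 (-0.10) and COL16A1 (-0.07). Higher in those labelled OE were further COL27A1 (0.41), COL18A1 (0.37), COL4A5 (0.32), COL20A1 (0.28), COL15A1 (0.28), COL8A1 (0.27), COL5A3 (0.27), COL25A1 (0.23), COL5A1 (0.20), COL9A2 (0.20), COL14A1 (0.14), COL12A1 (0.12), COL17A1 (0.11) and COL26A1 (0.06). The genes not called were COL1A1, COL1A2, COL3A1, COL4A4, COL4A6, COL6A6, COL8A2, COL11A2, COL21A1, COL23A1 and COL28A1, at -0.08 to 0.06. With block medians removed, COL7A1 was 0.28 and COL27A1 0.12, both called; COL15A1 (-0.01), COL14A1 (-0.08) and COL9A3 (-0.02) were not called, COL5A1 turned to -0.05 and was called, and COL11A2 became called (0.14). COL16A1 lost its call without KD replicate 3, OE replicate 1 or OE replicate 2 (-0.06 to -0.05), COL26A1 without KD replicate 2, OE replicate 1 or OE replicate 3 (0.04 to 0.05), and COL17A1 without KD replicate 3 (0.10). Without the variance trend COL26A1 lost its call (0.06) and COL8A2 gained one (-0.08).

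The pathway lists held 22 genes higher and 32 lower in those labelled OE among 72, 75.0%, against 47.3% of all rows and 64.1% of rows whose mean rlog reached 5. PXDN was higher by 1.34 ± 0.019 (SE; limma, adjusted p = 4.32e-32) and LOXL4 was lower, with a difference of -0.75 ± 0.012 (SE; limma, adjusted p = 6.92e-31). ITGA11 was higher (0.85), and ITGA1 (-0.98), ITGA10 (-0.79), CTSK (-0.99), P3H2 (-0.96), MMP14 (-0.90) and SEC31A (-0.65) were lower. SEC31A lies in a block with a median of -0.47 and was -0.17 without it. P4HA1, which rose against parental under both labels, was not called between them (-0.03; limma, adjusted p = 0.202), but was with block medians removed (-0.06).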

How the data were processed

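The paper names Trizol for the RNA of its PCR experiments. The sequenced libraries were made with TruSeq RNA v2, a kit that does not mark strand. The authors used cutadapt for trimming, hisat2 for mapping to GRCh38 and featureCounts (Subread) for counting, and dropped genes whose counts summed to under 10. The deposited values are log2 values per gene (rlog, from DESeq2 as run by the authors), scaled for library size by the authors. Here 22290 rows and 9 libraries were used as deposited. Groups were compared with limma 3.58.1 in R 4.3.3 (1 fit of all 9 libraries, two-sided, prior variance allowed to follow the mean level). P-values were adjusted by Benjamini-Hochberg over all 22290 rows, and a call needed an adjusted p under 0.05. The fit was tested on simulated data. Of the rows, 22195 matched GENCODE v44, which gave positions, exon lengths and shared exonic bases. The members and lists were chosen with earlier results of these data known. Values per library are given for members called with a difference from parental of at least 0.3 and no overlap, for the 6 highest per length, and for COL4A5 as a paired neighbour. Of each pathway list up to 4 called genes were named, with some of the others that went against these, changed sign or changed call. Alternatives were a replicate block, no variance trend, a mean rlog of at least 5, equal library medians, quantile normalization, the compared groups alone, removal of 20-Mb block medians and each library left out.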

Additional observations from a re-analysis of the deposited data

How the results depend on the processing

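Removing 20-Mb block medians turned the sign of COL5A1 in libraries labelled KD against parental (0.0761; limma, adjusted p = 0.00134), in those labelled OE against parental (0.0262; 0.317) and in OE minus KD (-0.0499; 0.0338). It also turned COL14A1 (-0.0822; 0.064) and COL15A1 (-0.0117; 0.816) in OE minus KD, and TGFBR1 in KD minus PAR (0.14; 1.84e-05) and OE minus KD (-0.0196; 0.555). Among other pathway genes it turned TLL1, not called before, in KD minus PAR (-0.128; 1.63e-06) and OE minus PAR (-0.0504; 0.0455). TLL1 had a mean rlog of 1.33 and was flat as deposited (0.006 in KD minus PAR, block median 0.11). Block medians came from rows with a mean rlog of 8 or more. For low rows such as TLL1 and COL14A1 (mean rlog 3.73), the new values thus cannot be told from the subtraction itself. Removing block medians also turned the called ADAMTS3 and CRTAP in KD minus PAR (-0.135; 0.000104 and 0.190; 3.35e-13) and OE minus KD (0.112; 0.00104 and -0.131; 2.61e-09), and it made TRAP1 in OE minus PAR 0.0637 (0.0343). With quantile normalization the sign turned in SPARC, KD minus PAR (-0.0135; 0.193). The cause was not tested. With 1 library left out, 25 to 26 of 41 collagens were called in KD minus PAR, 22 to 26 in OE minus PAR and 28 to 30 in OE minus KD, and of the 72 pathway genes 55 to 62, 36 to 42 and 51 to 54; TRAP1 differed by 0.125 to 0.146 in KD minus PAR and -0.01 to 0.04 in OE minus PAR. A replicate block gave 26, 26 and 30 collagens, 61, 41 and 55 pathway genes and TRAP1 differences of 0.14 and 0.02, but replicate numbers did not pair the libraries: deviations from the group means correlated at -0.071 to 0.140 between libraries of the same number.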
